A study of Homo sapiens with 3 samples.

Results

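Cytosolic ribosomal proteins are the protein parts of the ribosomes that translate nuclear messenger RNAs. A set of 56 of their genes was examined, 38 for the large subunit and 18 for the small subunit, among 22435 genes that could be named on the arrays. The members were given as a list of gene symbols, and their probes were found by RefSeq accession. Of the 56 genes, 54 had a matched probe. RPL10 and RPSA had no matched probe here and were not analysed. The only matched probe of RPL27A did not rise well above background, with signals of 10.1, 6.75 and 14.6 on the vehicle, cordyceps and sunitinib arrays. The remaining 53 genes, on 17 chromosomes, were compared in full, and they comprised 36 large-subunit and 17 small-subunit genes.

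TK-10, an established human renal cell carcinoma line, was exposed for 48 h to vehicle (0.1% DMSO), to cordyceps at 750 µg/ml or to 10 µM sunitinib, a receptor tyrosine kinase inhibitor. The growth medium shared by all cultures also held nicotinamide, troglitazone and zinc sulfate. The paper names cordycepin, a nucleoside first isolated from Cordyceps, at another dose where the array label names cordyceps, and it does not describe a sunitinib array, so the array is called by its label. Each condition had 1 single-colour Agilent array and no replicate, all on 1 slide, so no p-value could be given and the number of arrays limits the precision.

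Ribosomal protein messages are among the most abundant in growing cells. Many of them begin with a C followed by an unbroken stretch of C and T, the 5′ terminal oligopyrimidine (TOP) motif, through which growth signalling by the kinase mTOR and the RNA-binding protein LARP1 controls their translation and stability. The proteins are made in near-equal amounts, and surplus copies are degraded. An array measures the amount of message and not its translation.

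The motif was visible at the annotated starts of most members. The sequences below, from RefSeq on GRCh38.p14, run from 10 bases before to 20 bases after the start. They are shown for 7 of the 9 members more than 2-fold higher on the sunitinib array (RPL7 and RPL23 are not shown), for the lowest member there (RPL18), and for RPL22L1, a paralog that went the other way. Capitals mark the pyrimidine run counted from its first C between 5 bases before and 10 bases after the start. Pyrimidines just before that C, as in RPL13A, were not counted.
RPL31 (chr2:101002279-101002308, plus strand): ccttcgcgCTCTTCCTTTCCaacttggacg
RPS13 (chr11:17077648-17077677, minus strand): ctctcgCTCTCCTTTCgttgcctgatcgcc
RPL13A (chr19:49487598-49487627, plus strand): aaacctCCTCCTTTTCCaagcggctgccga
RPLP0 (chr12:120201092-120201121, minus strand): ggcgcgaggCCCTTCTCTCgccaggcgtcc
RPLP2 (chr11:809957-809986, plus strand): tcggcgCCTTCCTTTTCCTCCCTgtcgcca
RPL26 (chr17:8383174-8383203, minus strand): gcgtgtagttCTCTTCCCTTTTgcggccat
RPL6 (chr12:112411423-112411452, minus strand): gtatcctcagtgaatcagaaccagaaaaag
RPL18 (chr19:48619159-48619188, minus strand): agcccgttCTCTCTTTCCggacctggccga
RPL22L1 (chr3:170870176-170870205, minus strand): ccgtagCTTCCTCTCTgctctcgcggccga

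Among the sequences shown, RPL6 alone held no run of 5 or more bases at its annotated start. Of 48 members with a promoter sequence, 45 (93.8%) had a run of at least 5 bases and 36 (75%) had one of at least 8, against 30.5% and 8.09% of all 27305 genes with a promoter. The search used only the coding strand and the best annotated start of a gene. A match is a description of the letters and not a measured transcript start. RPL22L1 carried a run of 10 bases, the same length as in RPL18, RPS13 and RPLP0.

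On the vehicle array, the processed signals of the 53 members ran from 8799 for RPS3 to 339534 for RPS2, and 51 of them were at least 10000. Their median signal was 87131 on the vehicle array, 83879 on the cordyceps array and 72187 on the sunitinib array. Saturation was found at no spot. Of the 151 named genes with a vehicle signal of at least 50000, 62 (41.1%) coded for cytosolic ribosomal proteins, 44 of them members. The members together held 12.3% of the summed signal of all named genes on the vehicle array, 12.8% on the cordyceps array and 17.7% on the sunitinib array. These shares need no scaling between arrays. The members' signals summed to 5310200 for vehicle and 4540780 for sunitinib, while those of the other genes summed to 37941800 and 21136500. The sunitinib array was the dimmest, with a 75th percentile of 78.2 against 165 for vehicle and 138 for cordyceps. Less RNA per cell and a dimmer array cannot be told apart in these data, so the ratios below are relative to the 75th percentile of each array.

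**Figure D1:**
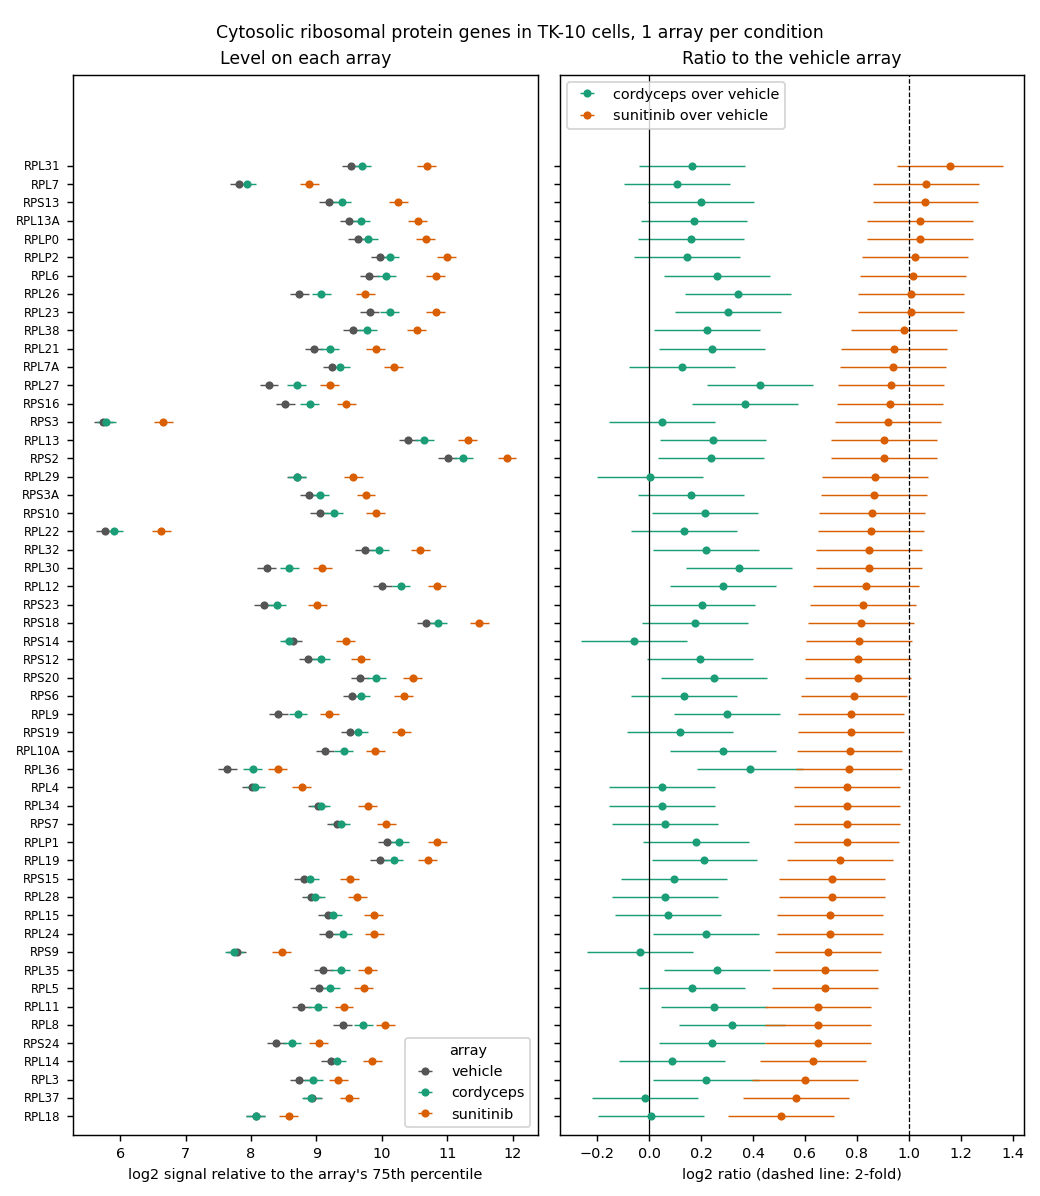
Left, the log2 processed signal of each of the 53 members relative to its array's 75th percentile, with Feature Extraction's spot error as bars. Right, the log2 ratio of each treated array to the vehicle array with the combined spot error as bars. All 53 sunitinib points lie between 0.51 and 1.16, whereas the cordyceps points lie between -0.06 and 0.43.

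Relative to the 75th percentile, all 53 members were higher on the sunitinib array than on the vehicle array, where 45.2% of all genes compared were higher, whereas in unscaled signal 52 of the 53 were lower. The median log2 ratio was 0.81 (interquartile range 0.71 to 0.93), a 1.75-fold difference, while the median over 14896 genes compared was 0.00. For 1903 of those genes 1 array was not well above background, so the ratio was a bound. A bound that would have crossed 0 was set to 0 and counted as neither higher nor lower. The median of 0.00 fell among these genes. The members spread little around their own median, with an SD over genes of 0.14 against 0.75 for all genes compared. More than 2-fold higher were 9 members, against 6.41% of all genes compared, and 6.49% of all genes were lower by that much. No member was more than 2-fold lower. All 53 exceeded the 95% limit set by the spot errors (1.96 combined errors), which 20.7% of all genes passed in that direction. Feature Extraction gave nearly the same log2 error, 0.14, for every member compared on every array. For the members the limit was thus a nearly fixed cut, and its 95% is nominal. It covers the spots of these arrays only and not the spread between cultures.

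The size of this difference depended on the scaling. Quantile normalization of the 3 arrays gave a member median of 0.19, with 47 of 53 members higher and none more than 2-fold higher. After normexp background correction and quantile normalization it was 0.21. Both medians lay below the spot error limit. All counts past that limit given here, including the 53 of 53 members, were made with the main scaling only. Quantile normalization gives every array the same distribution, including at the top. Cytosolic ribosomal protein genes made up 41.1% of the genes with a vehicle signal of at least 50000 and 10.5% of those at 10000 or more. The part of this in the member median was not tested. Scaling to the array median gave 0.48, with the median of all genes at -0.31, and unscaled signals gave -0.26, with the median of all genes at -1.05. These 2 settings shift the log2 ratios of all genes together, except bounds set to 0. The gap between members and all genes is therefore nearly fixed by construction. It was 0.81 in the main setting, 0.20 under quantile normalization and 0.22 under normexp.

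The members also differed in brightness from most genes. The 628 other genes with a vehicle signal of at least 10000 had a median sunitinib log2 ratio of 0.02, and the 51 members as bright had one of 0.81. Among the 88 other genes at 50000 or more, a level chosen after the values were seen, the median was 0.31. The ratio was thus higher among the brightest other genes as well, and the part of brightness in the members' result was not tested.

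**Figure D2:**
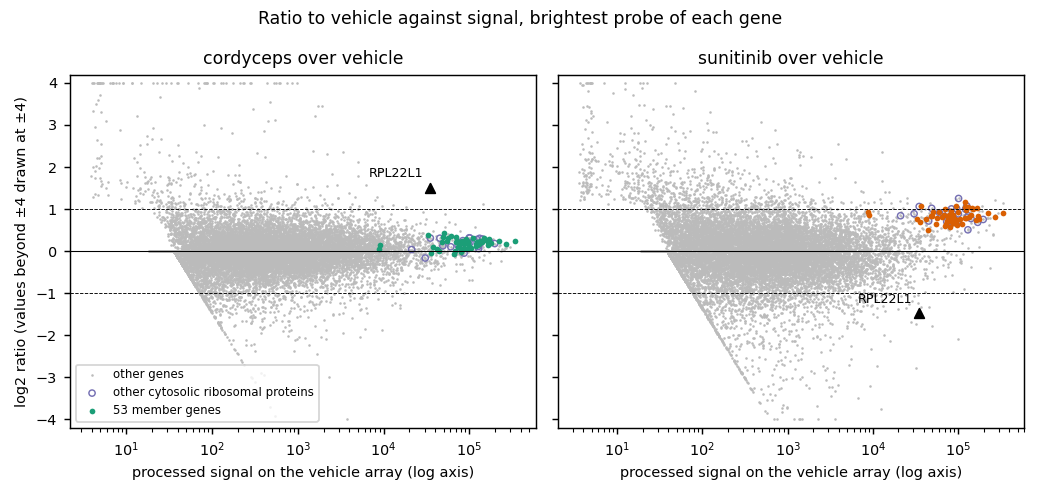
Log2 ratio to vehicle (vertical) against the vehicle array's processed signal on a log axis (horizontal) for the brightest probe of each gene; dashed lines mark 2-fold. The members form a narrow band, near 0.20 for cordyceps and near 0.81 for sunitinib, and RPL22L1 (triangle) lies outside it on opposite sides.

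RPL31, a protein at the rim of the tunnel through which the new chain leaves the ribosome, had the highest sunitinib ratio. Its signal was 121520 on the vehicle array, 114124 on the cordyceps array and 128987 on the sunitinib array, a sunitinib log2 ratio of 1.16 (2.23-fold). It was the only member whose unscaled signal was higher on the sunitinib array than on the vehicle array. A second RPL31 probe gave 0.91, below the 2-fold limit.

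RPL7, a large-subunit protein, had signals of 37267, 33635 and 37096 on the vehicle, cordyceps and sunitinib arrays, a sunitinib log2 ratio of 1.07. RPS13, a small-subunit protein, had signals of 95771, 92178 and 95143, a ratio of 1.06. The brighter of the other probes of RPL7 gave 1.25 and the second RPS13 probe gave 1.19, and all probes of both genes were above the 2-fold limit.

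RPLP0, RPLP1 and RPLP2 form the stalk that recruits and activates the GTPase factors of translation. RPLP0 had signals of 130304, 122116 and 127483 and a sunitinib log2 ratio of 1.04. RPLP2 had signals of 165192, 153125 and 159560 and a ratio of 1.02. RPLP1 had signals of 178712, 169852 and 143790 and a lower ratio, at 0.76. The 3 stalk genes spanned 0.28 on the log2 scale, within the 95% spot error limit of a single ratio. A second RPLP0 probe gave 1.33.

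The others past 2-fold were RPL13A at 1.04, RPL6 at 1.02, RPL26 at 1.01 and RPL23 at 1.01, all of the large subunit. Other probes of these genes gave 0.81 and 1.07 for RPL13A, 0.89 for RPL6, 0.97 for RPL26 and 0.90 for RPL23. RPL38, at 0.98, lay just under the limit, and its distance from those past it was smaller than the combined spot error of 0.20.

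RPL18 was the lowest member. Its signals were 44176, 37146 and 29867 on the vehicle, cordyceps and sunitinib arrays, a sunitinib log2 ratio of 0.51 (1.42-fold). RPL37 followed at 0.57, RPL3, which lies at the peptidyl transferase centre, at 0.60, RPL14 at 0.63 and RPS24 at 0.65. RPL5 and RPL11, which with the 5S RNA form the particle that can bind and inhibit MDM2, were at 0.68 and 0.65. Other probes of RPL5 gave higher values, at 0.84, 0.99 and 1.19, and RPL11 had 1 probe.

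The 2 subunits did not separate by their medians. More than 2-fold higher were 8 of 36 large-subunit and 1 of 17 small-subunit members, against 6.41% of all genes compared. The median sunitinib log2 ratio was 0.81 for the 36 large-subunit and 0.81 for the 17 small-subunit members. It was 0.93 for 8 genes of the exit tunnel rim, 0.82 for 13 genes of the small-subunit head and 0.80 for 16 genes of the small-subunit body, lists that include ribosomal proteins outside the 56. For 20 genes mutated in Diamond-Blackfan anaemia, an inherited failure of red cell production, it was 0.77. Members with a pyrimidine run of at least 8 bases (34 genes) had a median of 0.81 and those with a shorter run (11 genes) one of 0.77. The former ran from 0.51 to 1.16 and the latter from 0.60 to 1.02, so the ranges overlapped.

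On the cordyceps array the members differed little from vehicle. The median log2 ratio was 0.20 (interquartile range 0.11 to 0.25), a 1.15-fold difference. Relative to the 75th percentile, 50 members were higher and 3 lower. Of all genes compared 46% were higher and 48% lower, and the remaining genes had bounds set to 0. In unscaled signal 41 of the 53 members were lower. No member was more than 2-fold higher or lower, against 2.93% of the 14771 genes compared that were higher by that much and 2.74% that were lower. By the brightest probe of each member, RPL27 alone passed the spot error limit, which 13.8% of all genes passed upwards. Its signals were 50962, 57321 and 46140 on the vehicle, cordyceps and sunitinib arrays, a cordyceps log2 ratio of 0.43.

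RPL36 at 0.39, RPS16 at 0.37, RPL30 at 0.35 and RPL26 at 0.34 came next on the cordyceps array. The lowest were RPS14 at -0.06, RPS9 at -0.04, RPL37 at -0.02, RPL29 at 0.00 and RPL18 at 0.01. All of these but RPL27 lay within the limit of the spot errors. Quantile normalization brought the member median to 0.04 and unscaled signals brought it to -0.06. The cordyceps array also carried a bright streak of spots, in which no probe used for a member lay.

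The probe of RPL30 was printed 10 times on each array, and spots left after outliers were removed could be compared. The 7 spots used on the vehicle array ran from 48056 to 51606, the 7 on the cordyceps array from 51425 to 55523 and the 9 on the sunitinib array from 41109 to 44953. The SD of log2 signal was 0.04 on each array, smaller than the 0.14 that Feature Extraction gave as the error of a spot's log2 signal, on which the error limits rest. The spots of the vehicle and sunitinib arrays did not overlap in unscaled signal.

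Different probes of a gene mostly gave like values. Of the members, 32 had at least 2 probes well above background on all arrays, and the range of the sunitinib log2 ratio within a gene had a median of 0.16. Of the 54 probes of these genes other than the brightest, 35 had a higher sunitinib ratio than the brightest probe of their gene. Over 107 probes of members well above background on all arrays, 104 were higher on the sunitinib array, with a median of 0.86. The 19 with a vehicle signal under 10000 had a median of 1.09, and the 88 brighter ones had one of 0.84. RPL21, with 9 probes, ran from 0.94 to 1.25. Directions differed within 3 genes, each through 1 dim probe: RPL32 at -0.20, RPL37 at -0.05 and RPS3A at -0.38, where the brightest probes gave 0.85, 0.57 and 0.87. Dim probes of RPL15 and RPL28 gave 1.65 and 1.64, against 0.70 for the brightest probe of each. In the cordyceps comparison, directions differed within RPL22, RPL28, RPL29 and RPS23. Other RPL21 probes ran from 0.33 to 0.48 there, some of them past the spot error limit, against 0.24 for its brightest probe. A dim RPS24 probe gave 0.97, past its own larger limit, against 0.24 for the brightest. Ribosomal protein genes have many near-identical processed pseudogenes, so which copies a probe measured is uncertain.

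**Figure D3:**
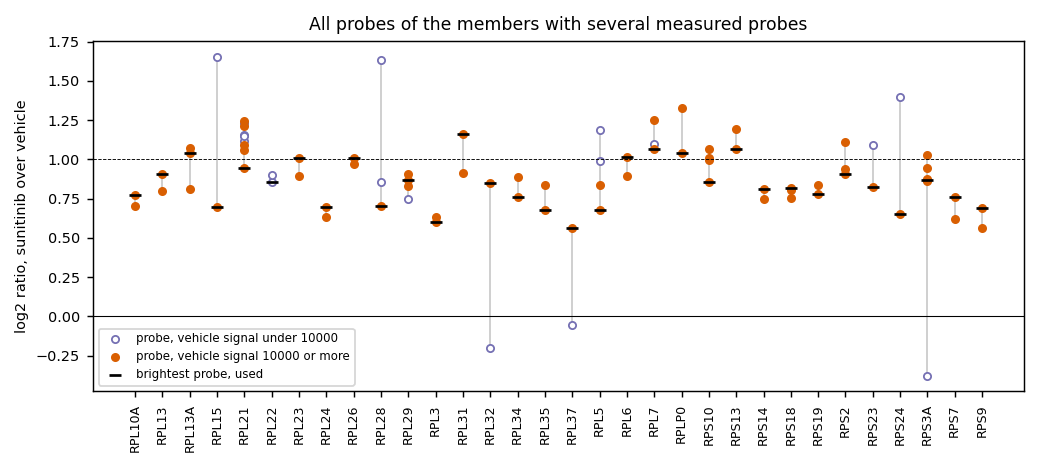
Sunitinib over vehicle log2 ratio of each probe, for the 32 members with at least 2 probes well above background on all arrays; each column is a gene, the bar its brightest probe and open circles probes with a vehicle signal under 10000. Filled points lie between 0.56 and 1.33, and the values below 0 are dim probes of RPL32, RPL37 and RPS3A.

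The 23 cytosolic ribosomal protein genes outside the list were at similar values. Their median sunitinib log2 ratio was 0.84, and all 23 passed the spot error limit upwards, against 20.7% of all genes compared. RPL41 at 1.25, RPS27 at 1.07, RPS27A at 1.06, RPL39 at 1.02, RPL23A at 1.01 and RPS15A at 1.00 were more than 2-fold higher. RPS26 was lowest at 0.51. In the cordyceps comparison their median was 0.20.

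RPL22L1, the paralog that can take the place of RPL22 in the large subunit, stood apart from them. Its signal was 35121 on the vehicle array, 83451 on the cordyceps array and 5960 on the sunitinib array. The log2 ratio was 1.50 for cordyceps (2.84-fold higher) and -1.49 for sunitinib (2.80-fold lower), with the same signs under every scaling tried. RPL22 itself had signals of 8975, 8254 and 7718, with ratios of 0.13 and 0.86. RPL22L1 rested on a single probe. Among the other paralogs compared, sunitinib ratios ran from -0.23 for RPL26L1 to 0.73 for RPL10L, and RPL39L was not well above background.

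A list of 18 translation factors and related genes known for TOP motifs was near the members. Promoters were found for 12, of which 11 (91.7%) held a run of at least 5 bases and 6 (50%) one of at least 8. Of the 18, 15 were higher on the sunitinib array by more than the spot error limit, against 20.7% of all genes compared. The median of the 18 was 0.80. The highest was EIF3F at 1.01, and EEF1A1, the elongation factor that delivers transfer RNA, was at 0.96. HNRNPA1, an RNA-binding protein, was at -0.02, and its second probe gave -0.88. NAP1L1 was at 0.81 by its brightest probe and 0.15 by its second. Other probes gave 0.59 to 1.25 for EEF1A1, 0.78 and 0.88 for EIF4B, and 0.19 and 0.88 for TPT1. Under quantile normalization this list had a median of 0.40. EEF2, the translocation factor, was lower on the cordyceps array at -0.48, the only one of the 18 past the limit there.

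Other parts of the translation machinery had lower median sunitinib ratios. They were also dimmer, with median vehicle signals of 2566 for other initiation factors and 2521 for mitochondrial ribosomal proteins, against 87131 for the members. Other genes with a vehicle signal of 1000 to 10000 had a median sunitinib log2 ratio of -0.10. The part of brightness in these contrasts was not tested. The median was -0.15 for 26 initiation factors outside the TOP list, of which EIF5A (-1.19), EIF4A1 (-1.16) and EIF3J (-1.11) were more than 2-fold lower. Higher by more than the spot error limit were 4 of the 26 (15.4%), against 20.7% of all genes compared. They were EIF3D at 0.78, EIF3C at 0.69, EIF1 at 0.65 and EIF3G at 0.58, values within the members' range. Lower by more than that limit were 7 (26.9%), against 20.3% of all genes. EIF5, which triggers GTP hydrolysis at the start codon, was the only one more than 2-fold lower on the cordyceps array, at -1.20. For 77 mitochondrial ribosomal proteins the median was -0.03, from -0.95 for MRPL14 to 0.86 for MRPL10, with none past 2-fold. The 13 reference genes had a median of -0.02.

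The 8 chaperones and assembly factors of ribosomal proteins had a median of -0.60 on the sunitinib array. Of these, 5 (62.5%) were lower by more than the spot error limit, against 20.3% of all genes compared. PDCD2 was at 0.30 and PRMT3 at 0.04. Some were dim, with vehicle signals of 107 for PRMT3 and 219 for BCCIP. On the cordyceps array 3 (37.5%) were higher by more than that limit, against 13.8% of all genes, PDCD2L at 0.78, PDCD2 at 0.64 and PRMT3 at 0.59. On the sunitinib array LTV1, a factor of small-subunit export, was at -0.95 and GRWD1, a chaperone of RPL3, at -0.82. HEATR3, which carries RPL5, had signals of 88.7, 67.4 and 9.83, of which the last was not well above background, so it was at least 2.30-fold lower. Of the 8 genes of TOP regulation, EIF4EBP1, the translation repressor that mTOR phosphorylates, was more than 2-fold lower, with signals of 8124, 7979 and 1757, while LARP1 was at -0.33 and MTOR at 0.01. EIF4EBP2, a repressor of the same family, was higher at 0.50, past the spot error limit, and its second probe gave 0.96.

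**Figure D4:**
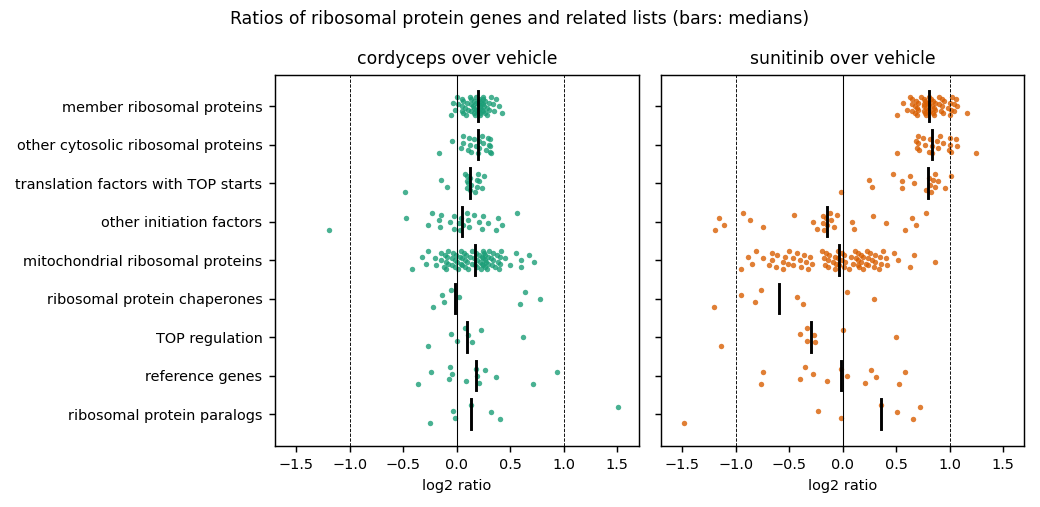
Log2 ratio to vehicle of each gene in 9 lists, with the list's median as a bar and dashed lines at 2-fold. On the sunitinib array the ribosomal proteins and the TOP translation factors have medians between 0.80 and 0.84, while the mitochondrial ribosomal proteins are centred at -0.03.

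Kidney epithelial markers were present on all arrays. Of 8 markers, 7 were compared. On the cordyceps array their median log2 ratio was -0.62, and 4 were lower by more than the spot error limit, against 12.6% of all genes compared. These were CDH16, a kidney cadherin, at -2.24, and the transcription factors PAX8 at -0.87, LHX1 at -0.77 and PAX2 at -0.62. On the sunitinib array the median was -0.18, from -0.93 for LHX1 to 0.77 for PAX2. KRT18, a keratin, had signals of 32571, 29748 and 19898. Of 6 markers of other cell types, CD3E, PECAM1 and COL3A1 were not well above background on any array. CDH5, an endothelial cadherin, was dim, with signals of 108, 79.7 and 60.4. COL1A1, a collagen gene, had signals of 5308, 1069 and 385. PTPRC, with 5 probes, had signals of 18.4, 12.4 and 45.7 on the brightest, near the background. Another of its probes had 26.6, 20.8 and 14.3. The part of these differences in the ribosomal protein ratios was not tested.

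**Figure D5:**
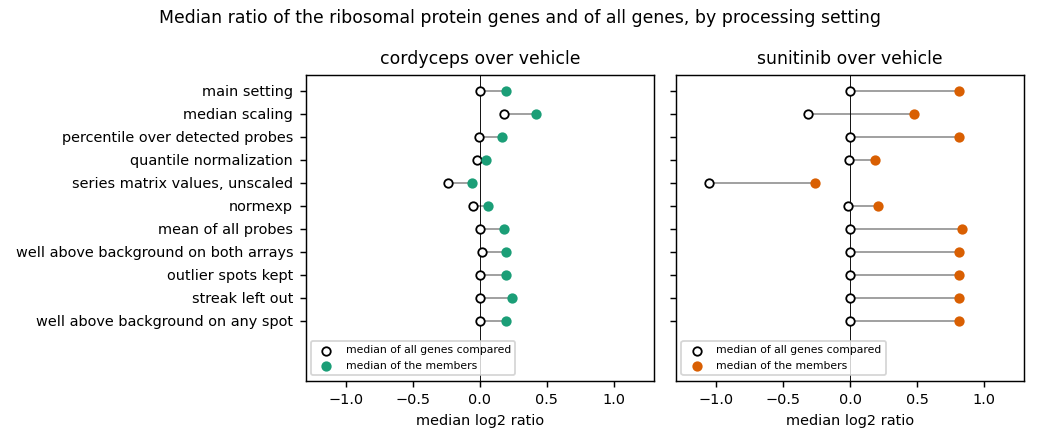
Median log2 ratio of the members (filled) and of all genes compared (open) under each processing setting, for both comparisons. The gap in the sunitinib comparison is 0.81 in the main setting and 0.20 under quantile normalization.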

How the data were processed

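The authors deposited 1 Feature Extraction 11.5.1.1 file per array, whose processed signal is a fluorescence intensity on a linear scale after background subtraction, with an error for each spot. The deposited table of processed values held the same intensity, equal to the mean over a probe's spots within 0.01% for 99.9% of probes on each array, with no log and no scaling between arrays. The header names hg19, and no coordinates of probes were used. The paper's methods describe another array with 2 colours, so only its 2-fold limit was taken.

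Control spots and 63 to 121 outlier spots per array were left out, repeated spots were averaged per probe, and the array's 75th percentile (log2) was subtracted from each log2 value. Of 58201 probes, 31100 were named through RefSeq (GRCh38.p14), and a gene was represented by its brightest probe over the 3 arrays. A gene was compared if either array had it well above background, with a bound where the dimmer array was not. A probe printed several times counted as well above background where at least 50% of its spots were. This last rule replaced an any-spot rule after results under the latter had been seen, and the any-spot rule is given as an alternative.

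The members and all lists were chosen with earlier results of these data known. Genes named are members past 2-fold, the 5 highest and 5 lowest of each comparison, the brightest and dimmest, stalk and 5S particle members, members whose probes disagree, and the extremes of the other lists, some of which are not reported here. RPL38, the dim probes of RPL15 and RPL28, and the level of 50000 were chosen after the values were seen. So were the cordyceps probes of RPL21 and RPS24 and the other probes of the TOP translation factors. No column of unknown sample was found. Alternatives changed the scaling, the background correction (normexp with an offset of 50, on the median spot signal), the use of several probes, the filters, outlier spots and a bright streak. The calculations used Python 3.11.15, pandas 2.3.3, R 4.3.3 and limma 3.58.1, and were tested on simulated data.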

Additional observations from a re-analysis of the deposited data

How the results depend on the processing

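No paired analysis was possible because each condition had 1 array and no test was made. The percentile over detected probes, the filter on both arrays, the outlier spots kept, the streak left out and the any-spot rule, which was added after the data were seen, changed neither the count of 9 members more than 2-fold higher on the sunitinib array nor which members they were. The mean of all probes also gave 9, of which 5 were shared: RPL6 (0.95), RPL13A (0.98), RPL23 (0.95) and RPL26 (0.99) fell below the limit and RPL15 (1.18), RPL21 (1.13), RPL28 (1.07) and RPS24 (1.02) were above it. Both member medians stayed above 0 in all of these settings. The any-spot rule gave 956 higher and 1008 lower genes over all genes on the sunitinib array, against 955 and 967. Median scaling, quantile normalization, normexp and unscaled signals each gave 0 members more than 2-fold higher. The member median on the sunitinib array was then 0.48, 0.19, 0.21 and -0.26, and the gap to the median of all genes was 0.20 under quantile normalization and 0.22 under normexp. On the cordyceps array the member median was 0.42 under median scaling and -0.058 unscaled. Unscaled, the sunitinib log2 ratio was -0.057 for RPL6, -0.0066 for RPL7, -0.031 for RPL13A, -0.066 for RPL23, -0.065 for RPL26, -0.032 for RPLP0, -0.0500 for RPLP2 and -0.0095 for RPS13.

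The scaling also moved the balance over all genes. Of the genes more than 2-fold changed, 51.7% were higher on the cordyceps array, against 76.8% under median scaling and 24.2% unscaled, with 433 higher and 405 lower genes becoming 734 and 222, and 265 and 829. On the sunitinib array the share was 49.7%, against 21.2% and 1.92%, with 517 higher and 1925 lower genes under median scaling and 156 and 7987 unscaled. Normexp gave 164 and 180 genes for cordyceps and 373 and 537 for sunitinib. All values rest on 1 array per condition, and spot errors do not cover the spread between cultures.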
